A study of Mus musculus with 12 samples.

Results

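The cytosolic ribosomal protein genes encode the protein components of the ribosome that works in the cytoplasm. Members were taken by symbol: Rpl or Rps followed directly by a number, with an optional letter or l suffix and an optional last digit, as in Rpl22l1. The rule also took in Rplp0, Rplp1, Rplp2 and Rpsa, and left out the Rps6k kinases. Of 18193 genes on the arrays with a probe set that names 1 gene, 49 met the rule, 26 of the large subunit and 23 of the small subunit. Another 29 ribosomal protein genes were found only on probe sets that name several genes, so 49 of the 78 seen on either kind are members. Where a member had several such probe sets, the brightest over the 12 arrays stood for it.

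The cells were TBV2, a mouse embryonic stem cell line of the 129/SvP strain. Proline-induced cells had been given 500 µM L-proline for 5 days, and control cells had been kept for the same time with no L-proline added. Both groups carried no genetic change, grew at low density on gelatin with no feeder layer, and received leukemia inhibitory factor (LIF), the cytokine that holds these cells pluripotent, in medium lacking the non-essential amino acids. Each group holds 6 arrays, numbered as 2 biological replicates of 3 arrays each, and the 3 arrays of a number were averaged because the labels do not explain their letters. All values are therefore those of 1 cell line with n = 2 biological replicates per group. Nothing in the labels says how those replicates were kept apart, so p-values measure only the spread between these means, which may be partly technical.

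A ribosome has a large subunit, which joins amino acids into protein, and a small subunit, which reads the messenger RNA. Cells balance the supply of these proteins in part at translation, since their messenger RNAs begin with a run of pyrimidines (the TOP motif) through which the mTOR pathway, a sensor of amino acids, acts. Embryonic stem cells divide fast and hold abundant ribosomal protein transcripts. A few members are paralogs, second copies of a ribosomal protein gene whose expression in other tissues is more restricted.

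The promoters of 4 members are shown because the results turn on them: Rpl39l, the member that passed the test, Rpl39, whose protein Rpl39l resembles, Rpl22l1, the paralog with the highest difference, and Rps10, which had the highest difference among the bright members whose arrays did not overlap. Each sequence runs 5′ to 3′ on the gene's strand, from 100 bases before to 50 bases after the annotated start, in build GRCm38.p6 of RefSeq. Capitals mark CCGGAAG on either strand (an ETS factor motif), TATAA on the sense strand, and any C followed by at least 4 pyrimidines within 10 bases of the start.
Rpl39l promoter (chr16:10170128-10170277, plus strand): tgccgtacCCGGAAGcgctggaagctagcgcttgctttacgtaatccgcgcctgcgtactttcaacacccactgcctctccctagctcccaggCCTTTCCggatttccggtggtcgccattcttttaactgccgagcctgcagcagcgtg
Rpl39 promoter (chrX:37085173-37085322, minus strand): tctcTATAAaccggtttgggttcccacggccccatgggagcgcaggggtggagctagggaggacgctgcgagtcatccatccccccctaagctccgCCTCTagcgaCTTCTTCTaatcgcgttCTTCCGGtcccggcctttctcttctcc
Rpl22l1 promoter (chr3:28805408-28805557, plus strand): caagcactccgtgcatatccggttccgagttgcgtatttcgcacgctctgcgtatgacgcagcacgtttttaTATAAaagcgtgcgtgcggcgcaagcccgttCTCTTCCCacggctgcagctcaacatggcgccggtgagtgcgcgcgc
Rps10 promoter (chr17:27635195-27635344, minus strand): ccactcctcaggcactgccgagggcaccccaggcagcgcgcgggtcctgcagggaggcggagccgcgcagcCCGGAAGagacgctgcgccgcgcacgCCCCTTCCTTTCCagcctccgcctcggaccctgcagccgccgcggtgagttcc

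A promoter window was found for 43 of the 49 members, in 51 windows because some genes have several starts. A pyrimidine run at the start lay in 28 of them (54.9%), against 30.7% of all 32851 windows of the same length. CCGGAAG lay in 29.4% of member windows and in 6.59% of all windows. TCTCGCGA, searched on both strands, lay in 17.6% of member windows and in 0.734% of all windows, and AAGATGGC, a YY1 motif also searched on both strands, in 5.88% and 1.74%. TATAA lay in 17.6% of member windows and in 9.28% of all windows. The Rpl39l window holds CCGGAAG and a pyrimidine run and no TATAA, and that of Rpl22l1 holds TATAA and a pyrimidine run and no CCGGAAG. These matches describe the letters in the windows and bear on no factor.

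Array quality and the identity of the cells were read from probe sets outside the members. Correlations between arrays were 0.996 to 0.998 within a biological replicate and 0.985 to 0.989 between biological replicates of one group. Between a proline and a control array they were 0.962 to 0.981. Array probe sets for 18S ribosomal RNA, the RNA of the small subunit, averaged 9.05 ± 0.98 in proline cells and 10.39 ± 0.49 in control cells (log2 signal, SD, n = 2), and poly-A spike-ins 7.79 ± 0.33 and 8.17 ± 0.25. The part of these differences in the results was not tested. All 10 markers of pluripotent cells were above the 40th percentile of probe sets, which stood at a log2 signal of 5.36, in at least 1 replicate. Their summed linear signal was 40818 and 36688 in proline cells and 51258 and 51238 in control cells. Markers of fibroblasts, extraembryonic endoderm and neural cells held 5 of 10, 3 of 10 and 3 of 9 genes under that percentile in all 4 means, and their summed signals were 577 and 817, 781 and 966, and 1615 and 1858 in proline cells, against 864 and 576, 692 and 882, and 1256 and 1627 in control cells. Single markers passed in limma: 1 rose and 2 fell among the pluripotent markers, 2 rose and 1 fell among the neural markers and 1 fell among the endoderm markers, with none among the fibroblast markers (1 at an unadjusted p under 0.05). Among the 10 pluripotent markers the log2 differences (proline minus control) ran from -1.49 to 4.57, and 4.57 was also the highest over all genes. The part of the markers in the members' values was not tested.

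The comparison of proline with control cells asks whether transcripts of the ribosome moved when the amino acid was added. Of the 49 members, 1 fell and 0 rose at an adjusted p of 0.05 in limma. Of all 18193 genes 4.36% passed, 3.03% higher and 1.34% lower in proline cells. With 49 members, a single call gives no firm share to set against these. The gene that fell was Rpl39l. The other 48 did not pass. An unadjusted p under 0.05 was found for 4 of the 49 members, against 4015 of all genes (22.1%). The median log2 difference of the members, proline minus control, was 0.03, with 31 above 0 and 18 below, and their middle range was -0.04 to 0.07. Over all genes the median was -0.03 and the middle range -0.18 to 0.18. In such bulk samples, fewer cells of a type and less RNA per cell cannot be told apart.

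Most members also differed little between biological replicates of one group. The median absolute difference between replicates was 0.040 in proline cells and 0.061 in control cells (log2), against 0.159 and 0.165 over all genes. It was 0.035 and 0.054 in the 36 members in the top 1% of gene signals. In the 13 dimmer members it was 0.186 and 0.245, above the values over all genes. In 36 of the 49 members the SD was under 0.1 in both groups. The median over the members for each of the 4 pairs of a proline with a control replicate ran from 0.01 to 0.06. A difference of under 0.1 was measured in 31 members. The 95% interval of the difference lay within 2-fold either way for 46 members and within 1.5-fold for 40.

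Brightness set the members apart from most of the array. Of the 49, 36 lay in the top 1% of gene signals, which began at 12.75 on a scale that ends at 14.79. Signals of different probe sets are not levels that can be ranked against each other, and at what signal these probe sets stop responding was not tested. In these 36 genes differences ran from -0.27 to 0.21 with a median of 0.04, 27 were above 0, and none passed in limma or had an unadjusted p under 0.05. All 36 intervals lay within 1.5-fold. The 146 other genes of the top 1% also held 0 past the threshold, with a median of -0.003, a range of -0.69 to 0.65 and 67 under 0.1 in size, against 27 of the 36 members. The members below the top 1% numbered 13, with a median of -0.21, and the 4 members with an unadjusted p under 0.05 were all among them.

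**Figure D1:**
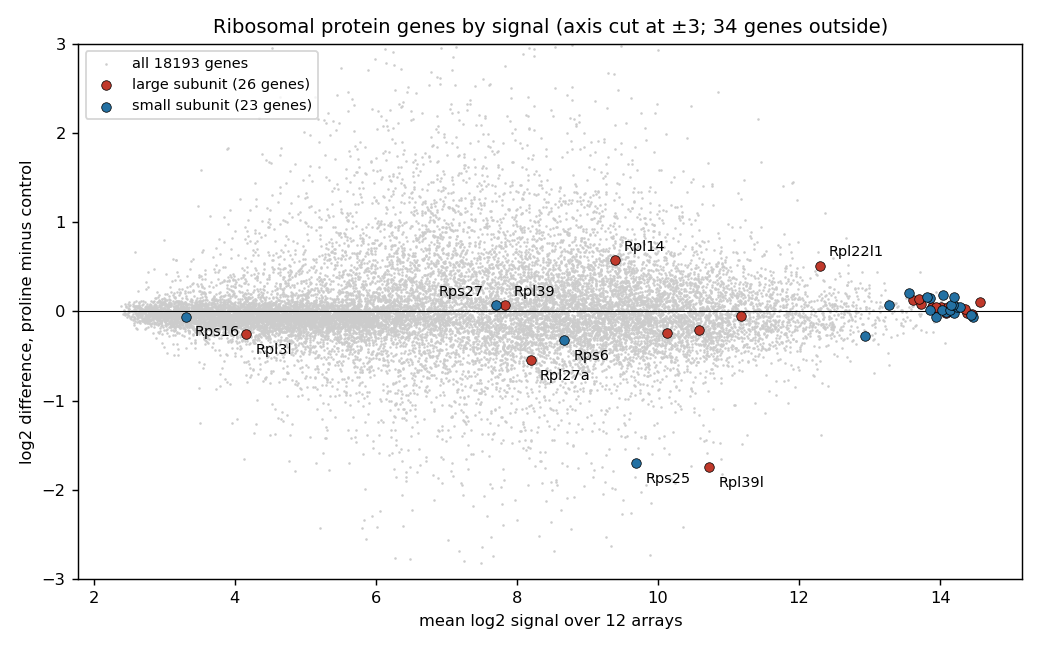
Log2 difference (proline minus control) against the mean log2 signal over 12 arrays for all 18193 genes (grey) and the 49 ribosomal protein genes (red, large subunit; blue, small subunit). Most members sit at the bright end within -0.27 and 0.21, while Rpl39l and Rps25 lie at -1.75 and -1.70, and 34 of all genes fall outside the plotted range of 3 either side of 0.

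**Figure D2:**
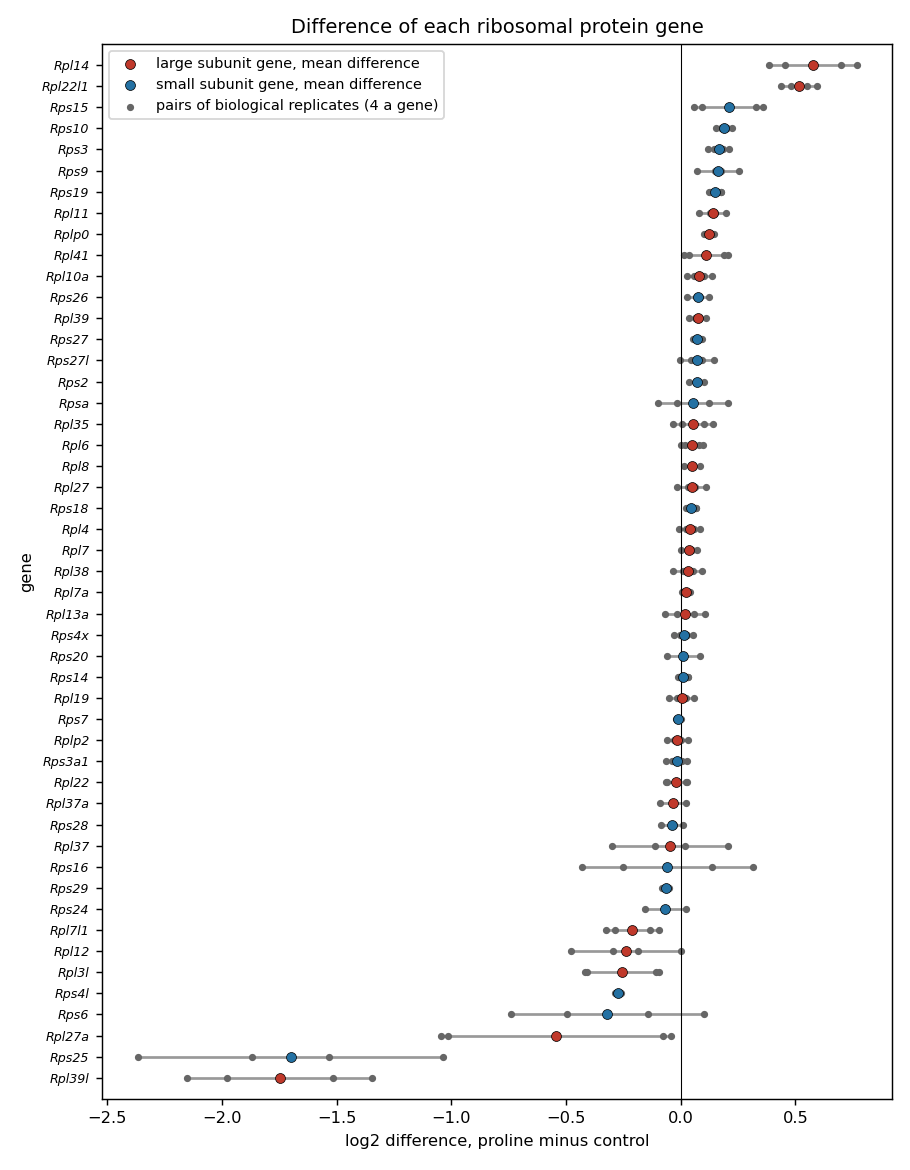
Log2 difference of each of the 49 members, sorted, with large subunit genes in red and small subunit genes in blue. Small grey points are the 4 pairs of a proline with a control biological replicate and the line spans them. Mean differences from Rps15 down to Rps24 lie within 0.21 of 0, and Rps25 and Rpl39l stand below the others.

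Rpl39l, a paralog of Rpl39 best known from male germ cells, was the only member past the threshold. It is on chromosome 16 and has 1 probe set. Its log2 signal was 9.77 and 9.94 in the proline replicates and 11.92 and 11.29 in the control replicates. Over single arrays it ran from 9.77 to 10.002 with a median of 9.82 in proline cells, and from 11.23 to 11.98 with a median of 11.61 in control cells, so the groups did not overlap. The control replicates lay further apart than the proline replicates. The difference was -1.75 ± 0.24 (moderated SE), 3.36-fold lower in proline cells, with an adjusted p of 0.0405 in limma and a 95% interval of -2.39 to -1.11. Without proline replicate 1 or 2 or control replicate 1 or 2 its adjusted p was 0.0875, 0.107, 0.121 or 0.0535 and no gene of the array passed, while 3676, 2890, 2766 and 3544 genes had an unadjusted p under 0.05. It was 0.0541 with the median over probe sets and 0.0660 with every probe set tested by itself.

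Rpl39, which lines the exit tunnel of the large subunit, did not pass. Its own probe set read 7.85 and 7.88 in proline cells, against 7.77 and 7.82 in control cells, a difference of 0.07 ± 0.11. A brighter probe set that names Rpl39 together with a predicted gene read 13.97 and 13.90 in proline cells and 13.97 and 13.91 in control cells, a difference of -0.004 ± 0.11. Neither of the Rpl39 probe sets moved by more than its error.

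The other paralogs went both ways, and 6 of 9 paralogs listed were measured. Rpl22l1, a paralog of Rpl22, read 12.50 and 12.61 in proline cells and 12.06 and 12.01 in control cells. Its arrays ran from 12.36 to 12.75 in proline cells and from 11.86 to 12.31 in control cells, without overlap but with a gap smaller than the spread in either group. The difference was 0.51 ± 0.12 with an adjusted p of 0.0904, and it passed in limma with an intensity trend (0.0479). Rpl22 itself measured -0.02 on its brightest probe set, and 0.12 and 0.68 on 2 dimmer ones.

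Rps4l, a copy of Rps4x on another chromosome, read 12.80 and 12.79 in proline cells, against 13.06 and 13.07 in control cells. Its 6 proline arrays (12.72 to 12.84) all lay below its 6 control arrays (12.97 to 13.15). The difference was -0.27 ± 0.11 and did not pass (adjusted p = 0.244 in limma), and since the genes are copies, its probe set may read both. Rps4x measured 0.01 ± 0.11. Of the remaining paralogs, the muscle gene Rpl3l measured -0.26 ± 0.15 at a dim signal near 4.04 in proline cells and 4.30 in control cells, below the 40th percentile of probe sets. Rpl7l1 measured -0.21 ± 0.13, and the p53-responsive Rps27l measured 0.07 ± 0.11.

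Rps25, a protein of the head of the small subunit that some viral and cellular messages need for internal initiation, gave 2 unlike readings. Its own probe set read 9.09 and 8.60 in proline cells and 10.96 and 10.13 in control cells, with arrays of 8.47 to 9.24 against 10.03 to 11.06. The groups did not overlap and the difference was -1.70 ± 0.34, a measured 3.25-fold lower signal that did not pass (adjusted p = 0.0724 in limma). It passed with the 12 arrays in a random block (adjusted p = 1.03e-04). That fit draws on single arrays, and 3987 of all 18193 genes passed in it, against 794 with the replicate means. A bright probe set that names Rps25 and 2 predicted genes read 13.60 and 13.62 in proline cells and 13.63 and 13.64 in control cells, a difference of -0.02 ± 0.11. Which part of the transcript each probe set reads was not analysed here.

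Rpl14 showed the same kind of split. Its own probe set read 9.83 and 9.52 in proline cells and 9.14 and 9.07 in control cells, with no overlap between arrays and a difference of 0.58 ± 0.15 (adjusted p = 0.121 in limma). It passed (adjusted p = 0.0105) with the 12 arrays in a random block, the fit in which 3987 of all genes passed. The brightest of 5 probe sets shared with a pseudogene read 13.52 and 13.36 in proline cells and 13.61 and 13.31 in control cells, a difference of -0.03 ± 0.16. The other shared sets measured between -0.05 and 0.13.

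Rps25, Rpl14 and Rpl39 belong to 9 members, none of them paralogs, whose single-gene probe set was below the top 1% of signals. The rest are Rpl27a, Rps6, Rpl12, Rps16, Rpl37 and Rps27. Their own probe sets had mean signals from 3.31 to 11.2 and differences from -1.70 to 0.58. All 9 also lie on a several-gene probe set with a mean signal of 13.45 to 14.45, and there the differences ran from -0.08 to 0.13 with a median of -0.01. Rps6, the target of the S6 kinases, measured -0.32 ± 0.24 on its own probe set, with proline replicates of 8.81 and 8.21 and control replicates of 8.95 and 8.71, and -0.02 without proline replicate 2. The shared probe set measured 0.02 ± 0.11. Rpl27a measured -0.54 ± 0.34 on its own, with control replicates of 8.95 and 7.98, and -0.04 ± 0.11 on the shared one.

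**Figure D3:**
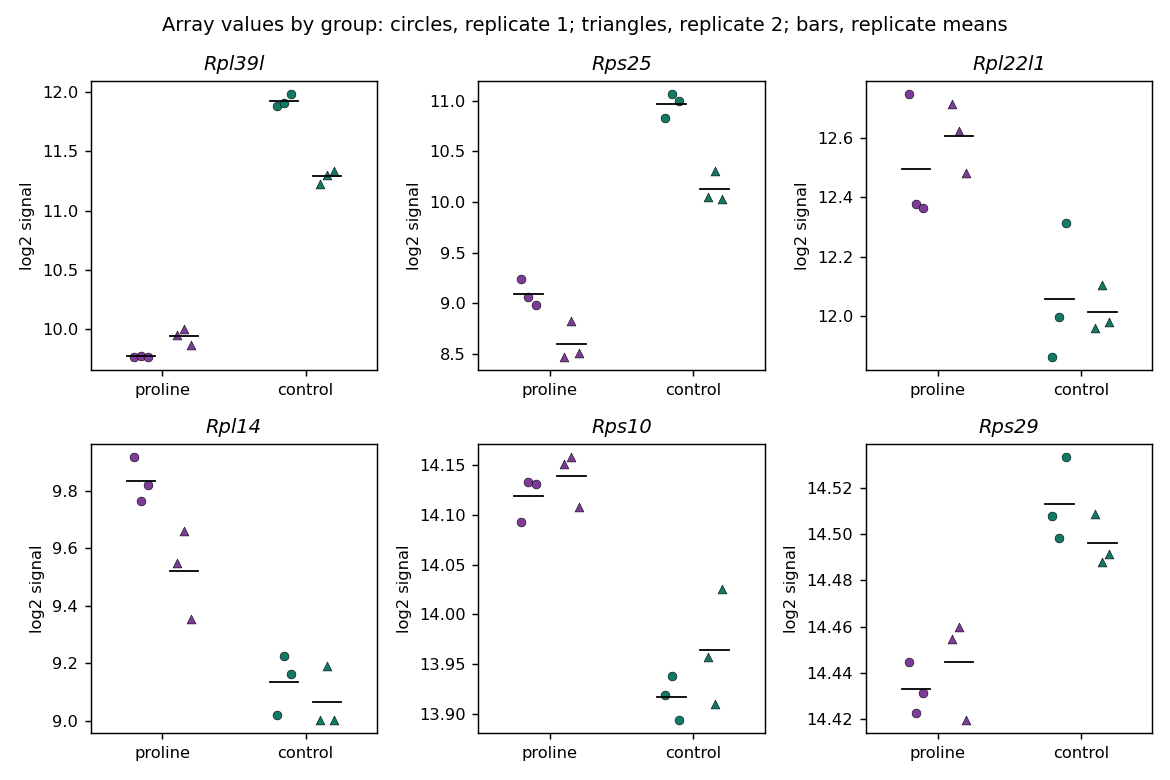
Log2 signal of each of the 12 arrays for 6 members, proline left of control in each panel, with circles for replicate 1, triangles for replicate 2 and bars for the replicate means; each panel has its own vertical scale. In all 6 members the proline arrays lie on one side of the control arrays, at distances from over 1 log2 unit (Rpl39l) to less than 0.1 (Rps29).

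All 6 proline arrays lay above all 6 control arrays in 6 members, Rpl11, Rps19, Rps3, Rps10, Rpl22l1 and Rpl14, and below them in 4, Rpl39l, Rps25, Rps4l and Rps29. Over all genes 13.8% lay above and 10.8% below, so the members' counts are near the background. Rps10, a small subunit protein that is ubiquitinated when ribosomes stall, read 14.12 and 14.14 in proline cells and 13.92 and 13.96 in control cells. Its difference was 0.19 ± 0.11 (adjusted p = 0.422), and its 6 probe sets all measured above 0, from 0.09 to 0.39. Rps29 read 14.43 and 14.44 in proline cells and 14.51 and 14.50 in control cells, a difference of -0.07 ± 0.11 (adjusted p = 0.806), so arrays without overlap here go with a difference under 0.1.

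Rpl39l, the only member past the threshold, was listed with the paralogs. No group by place in the large subunit could therefore hold a call. In the P stalk, which recruits elongation factors, 3 of 4 genes were measured with a median of -0.01. Rplp0 read 13.69 and 13.67 in proline cells and 13.55 and 13.57 in control cells, a difference of 0.12 ± 0.11. Rplp2 measured -0.01 ± 0.11 and Rpl12 -0.24 ± 0.16 on its own, dimmer probe set. The 2 several-gene probe sets of Rpl12 measured 0.13 ± 0.11 and 0.05 ± 0.11, on the other side of 0. Of the particle with the 5S ribosomal RNA, which can bind Mdm2 and restrain p53 breakdown, Rpl11 was measured and Rpl5 lies on a several-gene probe set. Rpl11 measured 13.75 and 13.80 in proline cells, against 13.67 and 13.60 in control cells, a difference of 0.14 ± 0.11. Along the exit tunnel, 4 of 8 genes were measured, Rpl4, Rpl19, Rpl35 and Rpl39, all between 0.00 and 0.07. Near the catalytic centre and subunit bridges, Rpl8 and Rpl41 measured 0.05 ± 0.11 and 0.11 ± 0.12. Rpl10a, kept in the same list, measured 0.08 ± 0.11. The large subunit had a median of 0.03 over its 26 genes, 17 above 0 and 9 below.

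The small subunit had a median of 0.01 over its 23 genes, 14 above 0 and 9 below, and none passed in limma, with 1 (Rps25) at an unadjusted p under 0.05. At the messenger RNA channel 6 of 7 genes were measured with a median of 0.06. Rps3, which sits at the channel's entry, read 14.27 and 14.30 in proline cells and 14.15 and 14.09 in control cells, a difference of 0.16 ± 0.11. Rps2 measured 0.07 ± 0.11, Rps26 0.08 ± 0.11, Rps28 -0.04 ± 0.11 and Rpsa 0.05 ± 0.13. Of the head and decoding genes 6 of 7 were measured. Rps15 read 13.69 and 13.65 in proline cells, against 13.59 and 13.33 in control cells, and its difference of 0.21 ± 0.14 was smaller than the gap between the control replicates. Rps19 read 13.96 and 13.91 in proline cells and 13.78 and 13.78 in control cells, a difference of 0.15 ± 0.11 that did not pass. Rps9, in neither of these lists, measured 0.16 ± 0.12.

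Genes whose loss of 1 copy causes Diamond-Blackfan anaemia in humans, a failure of red cell production, include 12 measured members of 20 listed. None passed in limma or had an unadjusted p under 0.05, and their differences ran from -0.07 to 0.19 with a median of 0.05. All 12 intervals lay within 1.5-fold.

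Different probe sets of 1 gene did not always give the same value. The 49 members hold 105 single-gene probe sets, 25 members have 1 and 24 have several, and in 16 of those 24 all probe sets share a sign. The following genes were chosen after their values were seen. Rps3 measured 0.16 on its brightest probe set and 0.74 and 0.04 on dimmer ones. Rps24 measured between -0.63 and 0.07 over 6 probe sets, and the lowest value belongs to one whose proline replicates read 8.81 and 9.84. Rpl13a measured between 0.02 and 0.46 over 4. Another 110 probe sets name several genes of which at least 1 is a ribosomal protein gene. None of them passed in limma when all 45037 probe sets were tested, of which 45 passed, and their median was 0.02. The 79 of them with a mean signal over 12 measured between -0.14 and 0.22. The farthest of the 110, at 1.37 ± 0.27 (adjusted p = 0.113), names Rpl13 together with Tax1bp3, so its signal cannot be given to either.

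Genes with related roles were set beside the members as lists, again with the same fit. The ribosomal protein gene Fau, whose symbol follows no Rpl or Rps pattern, read 13.75 and 13.70 in proline cells and 13.75 and 13.61 in control cells, a difference of 0.05 ± 0.12. Other translation genes with a TOP motif had a median of 0.08 over 16 measured of 17, with 12 above 0. None passed in limma and 1 had an unadjusted p under 0.05, against 22.1% of all genes. That 1 was the elongation factor gene Eef2, which read 13.90 and 13.97 in proline cells, against 13.53 and 13.46 in control cells (0.45 ± 0.11, adjusted p = 0.113). Translation initiation factors had a median of -0.01 over 32 measured of 37, with 0 past the threshold. An unadjusted p under 0.05 was found for 2 of them, Eif1ax (0.49 ± 0.13) and Eif2b4 (-0.50 ± 0.13), a smaller share than the 22.1% of all genes.

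Ribosome assembly factors, which fold and trim ribosomal RNA in the nucleolus and leave the finished ribosome, measured below the members. Their median was -0.23 over 47 genes, 43 of them below 0 (91.5%), against 36.7% of the members and 56.1% of all genes. None passed in limma, and 9 had an unadjusted p under 0.05, a share no higher than the 22.1% of all genes. The kinase gene Riok2, needed for late maturation of the small subunit, read 8.75 and 8.61 in proline cells and 9.19 and 9.32 in control cells (-0.58 ± 0.13, adjusted p = 0.0848). Rrp9, a partner of the U3 small nucleolar RNA, read 10.55 and 10.35 in proline cells and 10.90 and 10.97 in control cells (-0.49 ± 0.13, adjusted p = 0.124). In 13 of the 47 all proline arrays lay below all control arrays, a larger share than the 10.8% of all genes. In 0 of the 47 they lay above, against 13.8% of all genes. The median of the list over the 4 pairs of replicates ran from -0.37 to -0.09. It was -0.10 without proline replicate 2, and proline replicate 2 lay below proline replicate 1 by a median of 0.20, in 42 of 47 genes. The 18S and poly-A probe sets given above were lower in proline cells in the same direction, and proline replicate 2 read 8.35 for 18S RNA, against 9.74 in proline replicate 1. Their part in the list's values was not tested, and neither was the difference between this list and the members.

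Genes of ribosomal RNA transcription and ribosome regulation had a median of -0.21 over 18 measured of 19, with 15 below 0. Their differences ran from -1.76 to 0.49. In limma 0 passed the threshold and 4 had an unadjusted p under 0.05, a share near the 22.1% of all genes. Taf1c, of the RNA polymerase I initiation factor, measured -0.71 ± 0.18 and the S6 kinase gene Rps6kb2 -0.46 ± 0.14 (adjusted p = 0.111 and 0.154). Myc, which drives ribosome production, read 9.66 and 9.26 in proline cells and 9.21 and 10.12 in control cells, so the control replicates enclosed both proline values. Host genes of small nucleolar RNAs had a median of 0.05 over 11 measured of 12, with 0 past the threshold. Of them 1 had an unadjusted p under 0.05, Taf1d (-0.70 ± 0.25), against 22.1% of all genes. The median of the host genes over the 4 pairs ran from -0.17 to 0.17, on both sides of 0. It was -0.03 without proline replicate 1 and between 0.12 and 0.16 without any other replicate. Taking every probe set by itself, or the median of a gene's probe sets, gave -0.02.

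Mitochondrial ribosomal protein genes, which serve the separate ribosome of the mitochondrion, had a median of -0.13 over 76 genes, 55 of them below 0 (72.4%). None passed in limma and 11 had an unadjusted p under 0.05, again a share below the 22.1% of all genes. Mrps12 read 10.11 and 10.26 in proline cells and 10.72 and 10.79 in control cells (-0.58 ± 0.12, adjusted p = 0.0809), and Mrpl39 measured -0.71 ± 0.20. In 20 of the 76 all proline arrays lay below all control arrays, and in 2 above, against 10.8% and 13.8% of all genes. The list median ran from -0.24 to -0.04 over the 4 pairs of replicates, and it was -0.09 without proline replicate 2, -0.08 without control replicate 1 and -0.21 without control replicate 2.

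Targets of p53, which is stabilised when ribosome production is disturbed, held 1 gene that rose among 14 measured of 16. Of all genes 3.03% rose at this threshold, and with 14 genes a single call gives no firm share to set against it. Pmaip1, which encodes the pro-death protein Noxa, read 9.94 and 9.61 in proline cells and 8.49 and 8.80 in control cells (1.13 ± 0.18, adjusted p = 0.0498 in limma). The other 13 did not pass, Cdkn1a (-0.06 ± 0.33) and Mdm2 (-0.41 ± 0.23) among them. The list median was 0.15, and over the 4 pairs of replicates it ran from -0.34 to 0.37, on both sides of 0. It was 0.37 and -0.11 without proline replicates 1 and 2, 0.01 and 0.26 without control replicates 1 and 2, and -0.001 with every probe set by itself.

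**Figure D4:**
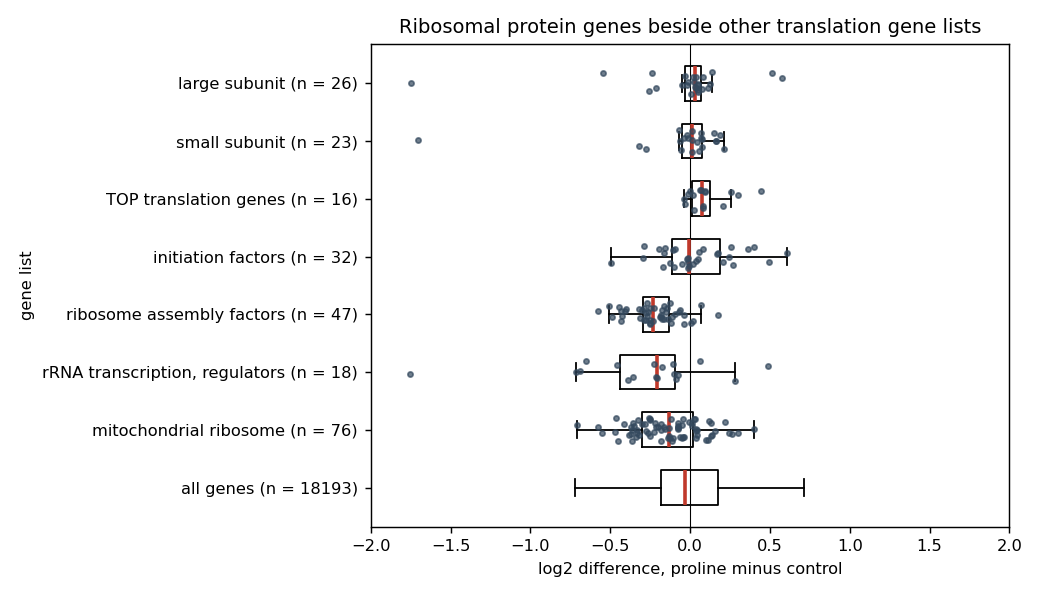
Log2 differences (proline minus control) of the large and small subunit genes and of the other lists, with 1 point per gene; boxes span the middle range, red lines are medians, whiskers reach 1.5 times the box, and all 18193 genes are shown as a box with no points. Subunit genes cluster at medians of 0.03 and 0.01, assembly factors at -0.23 and mitochondrial ribosomal protein genes at -0.13.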

How the data were processed

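Transcript levels were measured on 12 Affymetrix arrays, 6 of proline cells and 6 of control cells. The authors deposited log2 signals of 45101 probe sets, normalized across arrays. MAS5 and RMA were used, per the submitters' processing notes, with no version and no word on which made the table. The deposited log2 values ran from 2.10 to 14.8 and array medians from 5.99 to 6.03.

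Gene names came from the platform annotation and were checked by gene ID against RefSeq genes of GRCm38.p6 (0 changed, 204 IDs not found). One symbol belonged to 34945 probe sets, 932 had several, 9160 are unnamed here and 64 are array controls. No dim probe set was left out. Arrays of a biological replicate were averaged, and the 2 proline means were set against the 2 control means in limma 3.58.1 under R 4.3.3 (lmFit and eBayes, two-sided; residual df 2, prior df 2.60). Adjustment was by Benjamini-Hochberg over 18193 genes, at 0.05. An exact permutation test of 2 against 2 cannot give a p under 0.333. For arrays, the number of replicates limits the precision. The procedure was tested on simulated data. Promoters came from RefSeq (GRCm38.p6).

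The members, lists and tests were chosen with earlier results of these data known. Named are members past the threshold, the 8 highest and 8 lowest differences, examples of role groups and, per other list, genes past the threshold or the 2 with the smallest p, with Myc, Cdkn1a and Mdm2 added after their values were seen. Alternatives were quantile normalization, median centring, 2 filters on signal, 3 choices of probe set, a random and a replicate block, an intensity trend and leaving out each biological replicate. Python 3.11.15 with pandas 2.3.3 and matplotlib 3.10.9 drew the plots.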

Additional observations from a re-analysis of the deposited data

Results flagged for a closer look

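Among 32 groups of 6 arrays tested, one for each of 16 members of highest or lowest difference in proline and in control cells, 2 held an array whose gap to its nearest neighbour was large for the range of its group. Chance gives about 1 in 20. Rpl11 read 13.863 in proline replicate 2a, where the next array of the group read 13.784 and the lowest 13.739, a gap of 0.636 of the range. Rps15 read 13.757 in proline replicate 1a, where the next array read 13.675 and the lowest 13.627, a gap of 0.632 of the range.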

How the results depend on the processing

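Under 10 alternatives on all replicates, the count past the threshold ran from 35 (genes over the 90th percentile of signal) to 3987 (random block). Also further than 1.5 times from 794 were 351 (median over probe sets), 187 (every single-gene probe set by itself) and 2039 (replicate block). Of all 45037 probe sets 45 passed. The 794 came from 18193 genes, the 35 from 1820 genes and the 187 from 34945 single-gene probe sets. The 35 and 187 therefore differ from the 794 in the number tested as well as in the number past the threshold. The number of members past it was 0 with the median over probe sets or every probe set by itself, 3 with the random block (Rpl14, Rpl39l, Rps25), 2 with the replicate block (Rpl39l, Rps25, adjusted p = 0.00902), 2 with an intensity trend (Rpl22l1, Rpl39l) and otherwise 1 (Rpl39l). Leaving out any biological replicate gave 0 genes and 0 members past it in limma, with 4 members at an unadjusted p under 0.05 each time, and the lone mean was then assumed to vary like the other group. These fits leave 1 residual degree of freedom. Same-numbered replicates share only a number (2 pairs, correlation of deviations 0.338). The large subunit median was 0.018 with quantile normalization, 0.047 with the median over probe sets, 0.048 without _x_at or _s_at probe sets and 0.049 with every probe set, and 0.017 to 0.046 without single replicates. The small subunit median was 0.045 over the 90th percentile of signal, -0.0007 with quantile normalization and 0.011 to 0.046 without single replicates. The TOP list measured 0.035, 0.045 and 0.048 under the 3 choices of probe set and 0.036 to 0.091 without single replicates, the regulators -0.10 without _x_at or _s_at probe sets, and the assembly factors -0.35 to -0.10 without single replicates. The causes were not tested. No value past the threshold changed sign. Precision is limited by 2 replicates per group; whether signals near the top of the scale limit the response was not tested.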
